A study of Bos taurus with 17 samples.

Results

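Of the 21475 bovine gene probes on the array, 27 were detected on all 5 arrays of expanded cumulus and on none of the 12 arrays of compact cumulus (0.126% of probes). Detection means that the image software had set its flag for a signal well above background on 50% or more of the spots of a probe. The probes were selected on this flag, and their difference between expanded and compact cumulus is therefore given as a description, without a test. In all, 26 of the 27 probes carried a gene name and stood for 25 genes by name, and 1 probe had none. The opposite pattern, detection on all 12 compact arrays and on no expanded array, was also shown by 27 probes.

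Cumulus cells were studied at 3 stages, with 1 animal per array. NC1 cells came from the compact cumulus around developmentally incompetent prophase I oocytes of 6 prepubertal calves aged 3 to 6 months. C1 cells came from the compact cumulus around competent prophase I oocytes of 6 adult cows, and both groups were aspirated from ovaries at a slaughterhouse without any hormone treatment being described. C2 cells came from the expanded cumulus around competent metaphase II oocytes of 5 non-lactating Holstein cows aged 3 to 5 years, after progestagen implants, superovulation with a porcine FSH/LH preparation and prostaglandin F2α, by ultrasound-guided transvaginal aspiration of large pre-ovulatory follicles. Stage, hormone treatment, follicle size, place and way of recovery changed together from C1 to C2, and their parts cannot be told apart. From NC1 to C2 the animals' age, from calves to adult cows, changed as well and cannot be told apart from these. The breed is given for C2 alone.

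Cumulus cells surround the oocyte and are joined to it by gap junctions. After the gonadotropin surge, the EGF-like ligands and prostaglandins made in the follicle drive the cumulus to secrete hyaluronan and to bind it into a matrix, so that the cell mass expands, and the cells start to luteinise. Expanding cumulus is also known to release peptides and cytokines from vesicles and to turn nucleotides outside the cell into adenosine.

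The share of probes detected was 66.2 to 76.6% at NC1, 73.6 to 82.8% at C1 and 72.4 to 81.3% at C2, and no spot was saturated. Levels are given as log2 scaled signal, where 0 is the median probe of the same array. On this scale the weakest spot well above background lay between -3.96 and -2.36 on the NC1 arrays, between -4.78 and -3.72 on the C1 arrays and between -4.22 and -3.15 on the C2 arrays. Markers of granulosa and cumulus were present at C2: 11 of 12 were detected on all 5 arrays, among them FSHR, the FSH receptor, and FOXL2, a transcription factor of granulosa cells, and AMHR2 on 3. Over all probes, 67.0% were detected on all C2 arrays. Of the 10 of these markers that could be tested, 8 were called lower at C2 than at C1, against 12.8% of all probes tested. The 5 C2 arrays did not form 1 homogeneous group. Over the probes valid at every stage, replicates 1 and 5 differed by an SD of 0.44 and replicates 3 and 4 by 0.51, while the other C2 pairs differed by 1.05 to 1.27, against 0.43 to 0.76 for pairs within NC1 or C1.

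Detection on no compact array was shared by 2552 probes (11.9%). Of these, 1935 were detected on no C2 array either, and 382, 133, 38, 37 and 27 were detected on 1, 2, 3, 4 and 5 C2 arrays. Among the 37 probes that missed 1 C2 array, the array missed was that of replicate 2 for 27, of replicate 1 for 4, and of replicates 3, 4 and 5 for 2 each. Without C2 replicate 2, the rule gave 54 probes, all 27 members included. Among probes detected on all 5 C2 arrays, 17 were detected on exactly 1 compact array, 21 on 2 and 15 on 3. A total of 36 probes were detected on all C2 arrays and no C1 array, and 79 on all C2 arrays and no NC1 array.

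Several well-known genes lay just outside the rule. DSP, the desmosomal plaque protein desmoplakin, had C2 levels of 1.55, -1.89, 3.03, 2.11 and 3.03 in replicates 1 to 5 and was left out by detection on 1 NC1 array. SPRY4, an inhibitor of growth factor signalling, had 2.42, 1.02, -0.55, -0.82 and 2.60 and was left out by 1 C1 array. PIGR, the receptor that carries polymeric immunoglobulin across epithelia, reached 6.12 in replicate 3 and 4.89 in replicate 4 but was not detected in replicate 5, at -6.38. A probe of IL1R1, the receptor of interleukin-1, and that of CD3E, a subunit of the T cell receptor complex, were missed in replicate 2 alone. Another IL1R1 probe was detected on 1 C1 array.

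On all 5 C2 arrays each of the 27 probes stood above all 12 compact arrays, an order that 5.83% of all probes showed and that detection largely fixed here. The margin between the lowest C2 and the highest compact array was widest for TKDP2, at 6.39, and narrowest for RAB39A, at 0.12.

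The 27 probes were dim, as far as the signals of different oligonucleotides can be set side by side. Their C2 means ran from -2.30 to 2.87 with a median of -1.23, and 7 of the 27 exceeded the median probe of the array. The median over all 14383 probes detected on all C2 arrays was 2.53, and 26 of the 27 lay below the middle of that set, where their median percentile was 13.5. Their median SD between C2 animals was 0.87, against 0.50 over the same 14383 probes, and 12 of the 27 had an SD above 1. The sets were not matched for brightness, and the part of dimness in this spread was not tested. No member passed the filter of the study, which asks for presence on 80% of the arrays of each stage, nor could a probe absent from the compact arrays pass it, so a fold change was not measured for any of them. In compact cumulus the median of the members' levels was -5.78 at C1 and -5.13 at NC1, below the detection limit of those arrays. A lower limit was set instead, from the C2 mean over the mean of the detection limits of the compact arrays, or of the probe's own value where that was higher. These limits ranged from at least 3.69-fold to at least 133-fold over C1, with a median of 7.75, and from 1.72-fold to 61.9-fold over NC1, with a median of 3.61. In this bulk RNA, more cells of a type and more RNA per cell cannot be told apart.

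"Detected" had to be read against the flag used. Of the 648 spots of members on compact arrays, 375 (57.9%) had no signal of their own and carried a value put in by the software. A weaker flag of the same software, positive and significant against background, was nonetheless set on at least 1 compact array for each of the 27 probes. With that flag in the rule, 5 other probes and none of the 27 were selected: CCR3, GNAT3, CCDC141 and 2 without a name, all with C2 means between -4.46 and -3.04. The 27 probes are thus those that were bright enough at C2 and too dim in compact cumulus for the stricter flag, not transcripts shown to be absent from compact cumulus.

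Among secreted proteins, TKDP2 was the brightest member. It encodes a trophoblast Kunitz domain protein, of a ruminant family related to protease inhibitors and known from the placenta. Its levels were 2.04, 2.28, 3.18, 3.80 and 3.04 in C2 replicates 1 to 5 (2.87 ± 0.71, SD, n = 5), and its intensity of 422 to 1720 units at C2 stood against 1.57 to 10.2 on the compact arrays. All 5 C2 arrays were thus high, with no overlap, and the limit was at least 133-fold over C1 and at least 61.9-fold over NC1. The limit over C1 was 81.7-fold on the first scan day and 249-fold on the second. The array held probes for the related TKDP1, TKDP3, TKDP4 and TKDP5, all detected in compact cumulus on 4 to 10 of the 12 arrays. TKDP3 was the only one of these that could be tested, and its C2 level of -2.28 exceeded C1 by 1.01 ± 0.60 (SE, adjusted p = 0.195). Family members share sequence, and which transcript bound the TKDP2 probe is uncertain.

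The other secreted members were dim. COL14A1, a collagen that associates with fibrils, had C2 levels of -3.46, -1.59, -0.92, -0.88 and -2.15. ARSJ, a member of the arylsulfatase family, had -0.28, -1.17, 0.73, -0.42 and -1.50. The limits over C1 were 5.23-fold for COL14A1 and 12.6-fold for ARSJ.

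AGTR1 and ADGRE3 were the G protein-coupled receptors of the set. AGTR1, the type 1 receptor of angiotensin II, had levels of 3.07, 0.14, -0.68, -0.31 and 3.90 (1.22 ± 2.11, SD, n = 5). Replicates 1 and 5 were thus well above the other three, and its limit over C1 was 77.3-fold on the first scan day, which holds both, and 15.7-fold on the second. ADGRE3, an adhesion receptor of the EGF-TM7 family known from myeloid cells, had 1.52, 2.18, -0.50, -0.29 and 1.77 (0.94 ± 1.24), so that replicates 3 and 4 were lowest.

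Of the 11 genes of the renin-angiotensin list, 9 had a probe and AGTR1 alone was a member. Of the 3 genes of the list that could be tested, AGTRAP, which binds the receptor and promotes its internalisation, fell by 1.09 ± 0.18 (SE) from C1 to C2 (limma, adjusted p = 0.000123). The others of the 3 did not pass the test. The share of all valid probes called from C1 to C2 was 28.1%, with 15.3% higher and 12.8% lower, and the same 28.1% were called between NC1 and C2.

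SEMA3E and EPHA7 belong to families first known from axon and vessel guidance. SEMA3E, a secreted class 3 semaphorin, had levels of 1.46, 1.90, -0.49, -0.95 and 2.91 (0.97 ± 1.63), lowest in replicates 3 and 4, with a limit of at least 35.6-fold over C1 and 16.6-fold over NC1. PLXND1, its plexin receptor, was detected on all 17 arrays and differed from C1 by -0.61 ± 0.44 (adjusted p = 0.293). SEMA3C fell by 1.95 ± 0.38 from C1 (limma, adjusted p = 0.000475). It was the only gene called among the 7 of its list that could be tested, against 28.1% of all valid probes. The list's median difference was -0.19, against 0.02 over all valid probes.

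EPHA7, a receptor tyrosine kinase that binds A-type ephrins, was the only gene name with 2 member probes. The array listed these 2 probes under different gene records, and 1 was named only by the array's description. Whether both measure the same gene is therefore uncertain. The brighter probe had levels of 2.10, -0.06, 0.90, 1.06 and 0.83 (0.97 ± 0.77) and the dimmer one had 0.73, -1.60, -0.68, -0.58 and -0.51 (-0.53 ± 0.83). Both probes were highest in replicate 1 and lowest in replicate 2. Their limits over C1 were at least 35.6-fold and 12.6-fold.

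Of the 20 Eph receptors and ephrins with a probe, EPHA7 alone was a member, and EPHA3 was detected on no array. In the 16 that could be tested, 3 rose and 4 fell from C1 to C2, and 4 rose and 1 fell from NC1. Over all valid probes, 15.3% rose and 12.8% fell from C1, and 15.5% rose and 12.6% fell from NC1. EFNB1, EFNA4 and EFNA1, all ligands, rose over C1: EFNB1 by 3.09 ± 0.49 (adjusted p = 5.83e-05), EFNA4 by 1.79 and EFNA1 by 1.68. EPHB2, EPHA6, EFNB3 and EPHA8 fell, by 0.69 to 1.52. The same 3 ligands rose over NC1, together with the receptor EPHB4, by 1.89 (adjusted p = 0.00109). The list's median difference was -0.28 from C1 and -0.17 from NC1, against 0.02 and 0.11 over all valid probes.

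SLC17A9 and NT5E belong to the release of ATP and its conversion to adenosine. SLC17A9 is the vesicular transporter that loads ATP for release, and its levels were 0.23, 0.35, 1.76, 1.72 and 1.45 (SD 0.75, n = 5). All C2 arrays were above the median probe, and the limit for the C2 mean was at least 39.0-fold over C1 and 18.2-fold over NC1. NT5E is CD73, the surface enzyme that makes adenosine from AMP, and its member probe had -1.80, -0.52, -1.65, -1.38 and -1.21 (-1.31 ± 0.50), with limits of 7.34-fold and 3.42-fold.

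A second NT5E probe shows that this gene was not restricted to expanded cumulus. It was detected on all 6 C1 arrays, at 2.64 to 3.39 with a median of 2.91, and on 5 of 6 NC1 arrays, at up to 4.21. On the C2 arrays it stood at 7.10, 7.09, 7.35, 7.48 and 7.26, above every compact array, and its mean was 4.27 higher than at C1. Both probes were thus higher at C2, and the bright one places NT5E in compact cumulus as well.

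Of the 20 genes of nucleotide release and adenosine with a probe, 10 could be tested besides NT5E, whose difference chose it. From C1 to C2, P2RX4 rose and 3 fell, against 15.3% and 12.8% of all valid probes. P2RX4, an ATP-gated channel, rose by 1.19 ± 0.22 (adjusted p = 0.000269). ENPP1, which breaks down extracellular ATP, fell by 4.48 ± 0.54 (adjusted p = 3.09e-06), and the adenosine receptors ADORA2A and ADORA1 fell by 1.52 and 0.95.

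S100A9 and CAMK2N1 act in calcium signalling or binding. S100A9, a calgranulin abundant in neutrophils and in inflamed epithelia, had the largest spread of all members, with -1.66, -1.92, 4.01, 3.78 and -1.05 (0.63 ± 3.00). Replicates 3 and 4 formed a high pair, up to an intensity of 2353 units, and the limit over C1 was 5.14-fold on the first scan day and 330-fold on the second, which holds that pair. Its partner S100A8 had 0.74, -1.53, 5.76, 5.69 and 0.95, and S100A12 had 3.59, 2.95, 7.73, 7.42 and 3.73. Both were detected in compact cumulus, S100A8 on 11 arrays and S100A12 on all 12, and rose by 4.67 ± 0.94 (adjusted p = 0.000648) and 3.04 ± 0.69 (adjusted p = 0.00174) over C1. CAMK2N1, an inhibitor of calmodulin kinase II, had -0.18, -3.70, -0.78, -1.82 and -1.82.

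KRT5, KRT15 and EPCAM, of the list of stratified epithelium, were high in the same C2 arrays as S100A9. In C2 replicates 3 and 4 the keratin KRT5 stood at 7.42 and 6.85, against -1.18 to -0.71 in the other C2 arrays. KRT15 stood at 5.70 and 5.13 and was otherwise detected on 1 C2 array, at -4.48, and on 1 C1 array. EPCAM, an epithelial adhesion molecule, stood at 4.82 and 3.79, against -6.22 to -2.13, and was detected on 4 C1 and 6 NC1 arrays. Over the whole list of stratified epithelium, 11 of 13 genes had a probe, and their summed signal, in multiples of the median probe, was 9.83, 11.5, 263, 176 and 10.2 in C2 replicates 1 to 5, against 8.79 to 13.6 at C1 and 9.78 to 14.4 at NC1. Those 3 genes made up nearly all of the difference: without them the list summed to 9.16, 10.7, 10.9, 11.8 and 9.73. KRT14 stayed between 1.87 and 2.52 and KRT4 between 1.26 and 2.21 on the C2 arrays, TP63 was detected on none of them, and KRT16 and DSG3 were detected on no array.

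The leukocyte list, of which S100A9 is a member, summed to 112, 67.6, 333, 293 and 153 in the same C2 arrays, against 40.04 to 102 at C1 and 50.5 to 71.2 at NC1. The high sums of replicates 3 and 4 came from the calgranulins themselves. Without S100A8, S100A9 and S100A12 the other 24 genes summed to 97.6, 59.3, 50.2, 57.2 and 138, lowest in replicates 3 and 4, against 37.3 to 96.0 at C1 and 45.1 to 67.2 at NC1. Of its 27 genes with a probe, 18 were detected on all C2 arrays, near the 67.0% of all probes. Of the 16 that could be tested, 9 were called higher than C1 and 5 higher than NC1, S100A8 and S100A12 among both, and none lower. Over all valid probes, 15.3% were called higher than C1 and 15.5% higher than NC1. PTPRC, the common leukocyte antigen, was detected on all 17 arrays, while CD3D, ITGAM and ITGAX were each detected on 1 C2 array. The part of these cell types in the levels of S100A9, ADGRE3, GIMAP7 or any other member was not tested.

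TSPAN12, CDH17 and SLC66A3 are proteins with membrane-spanning segments. TSPAN12, a tetraspanin that assists Norrin signalling through FZD4, had 1.56, -2.58, -1.19, -0.89 and 0.04 (-0.61 ± 1.54). FZD4 itself was detected throughout and rose by 1.73 ± 0.25 from C1 (adjusted p = 2.19e-05) and by 1.52 ± 0.25 from NC1. CDH17, a cadherin of intestine, had -0.09, -3.05, -1.87, -2.89 and -0.14, so that replicates 1 and 5 were highest. SLC66A3, a PQ-loop repeat protein, had -1.24, -2.37, -0.48, -0.89 and -1.62. The limits over C1 were 11.9-fold, 5.97-fold and 7.30-fold.

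FNBP1 and CLMN bear on the cytoskeleton. FNBP1, an F-BAR protein that bends membranes and recruits actin regulators, had -0.55, -0.39, 0.17, 0.88 and -0.18, at least 8.40-fold over NC1. CLMN, a calponin-like protein with a membrane anchor, had -2.13, -0.48, -1.31, -0.58 and -1.66.

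BMX, BAALC and GIMAP7 have roles in signalling or are known from blood cells. BMX, a tyrosine kinase of the Tec family, had -1.47, -2.03, -0.72, -0.43 and 0.02 (-0.93 ± 0.82). BAALC, first described in brain and acute leukaemia, had -3.35, -1.14, -1.68, -0.99 and -3.99. GIMAP7, a GTPase of a family expressed in lymphocytes, had -0.84, -2.74, -1.24, -1.75 and 0.07. None of the 3 exceeded the median probe by more than 0.07 on any C2 array, and their limits over NC1 were 4.46-fold, 1.81-fold and 3.45-fold.

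RAB39A and RUBCNL act in vesicle traffic and autophagy. RAB39A, a small GTPase of the endosomal system, had -3.60, -3.14, -0.48, -0.21 and -3.51 (-2.19 ± 1.69), and replicates 3 and 4 were again the high pair. Its limit over NC1 was 1.02-fold on the first scan day and 5.22-fold on the second, and its lowest C2 array lay nearest to its highest compact array of all members. By the C2 mean, C16H1orf74 and BAALC had lower limits. RUBCNL, which promotes the maturation of autophagosomes, had -2.05, -0.21, -0.75, -0.98 and -2.36, at least 7.54-fold over C1.

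MBNL3 and RBM20 regulate splicing. MBNL3, the least abundant muscleblind protein in most tissues, had -2.83, -0.73, -0.77, -1.64 and -1.19. Its relatives MBNL1 and MBNL2 were detected on all 17 arrays. MBNL1 rose by 0.84 ± 0.21 from C1 (adjusted p = 0.00356) and MBNL2 differed by 0.77 ± 0.25 (adjusted p = 0.0186). RBM20, best known for the splicing of titin in heart muscle, had -0.29, -1.71, -1.99, -2.24 and 0.67, highest in replicates 1 and 5. The last named member, C16H1orf74, an open reading frame without an assigned role, was the dimmest, with -2.14, -3.08, -2.40, -2.30 and -1.59, at least 3.69-fold over C1 and 1.72-fold over NC1. The probe without a name had a mean of -1.81 ± 0.45.

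The 5 C2 animals fell into recurring orders across the members. In 8 members replicates 3 and 4 were both above the other three, among them TKDP2, SLC17A9, S100A9, FNBP1, SLC66A3, COL14A1 and RAB39A. Over all probes, 30.2% showed that order, so the share among members was near the background. In 7 members replicates 1 and 5 were both above the other three, against 21.3% of all probes, which is again near the share among members: AGTR1, the dimmer EPHA7 probe, TSPAN12, RBM20, GIMAP7, CDH17 and C16H1orf74. In 4 members, AGTR1, SEMA3E, ADGRE3 and RBM20, replicates 3 and 4 were both lowest, against 14.9%.

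Of the 14 genes listed for steroid synthesis, replicates 1 and 5 stood apart in STAR, and both pairs in CYP19A1. CYP17A1 of that list stayed between 1.34 and 2.25 on the C2 arrays. STAR, which carries cholesterol into mitochondria, had 7.66, -0.94, 0.87, -0.04 and 8.19 in C2 replicates 1 to 5, and CYP19A1, the aromatase, had -3.38, -1.15, 2.34, 2.43 and -3.74. Replicates 3 and 4 are also the C2 arrays of the second scan day, on which 3 NC1 and 3 C1 arrays were scanned as well. Animal and scan day cannot be told apart within C2. On the first and second scan day the median limits of the members were 6.64-fold and 12.2-fold over C1, and 4.82-fold and 3.64-fold over NC1. The rule largely fixed these limits above 1 on either day, so they describe sizes only.

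For 6 of the 25 genes the array held another, non-member probe, and in 5 of them that probe was detected in compact cumulus as well as on all C2 arrays. Besides NT5E these included BAALC and C16H1orf74, detected on all 12 compact arrays, and CLMN, detected on 10. The BAALC probe had -1.17, 0.56, 1.82, 1.73 and -1.99 at C2, against -2.57 to -1.44 at C1 and -3.57 to -2.06 at NC1. The C16H1orf74 probe had 0.64 to 1.36 at C2, against 0.08 to 0.33 at C1 and -0.36 to 0.31 at NC1, without overlap. For BMX the order was turned: the other probe was detected on 4 C1 and 2 NC1 arrays and on no C2 array, so that the 2 BMX probes gave opposite patterns and the gene's direction is uncertain.

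The oligonucleotide of the other CLMN probe, as the deposited table gives it, is shown because it found CLMN in compact cumulus, where the member probe did not. It is 60 bases long.
CLMN: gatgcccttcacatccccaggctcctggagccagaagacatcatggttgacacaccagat
In the genes whose other probe was detected both at C2 and in compact cumulus, detection at C2 alone held for the member probe only. Whether both probes of such a gene read the same transcripts was not tested. Both probes named EPHA7 were detected at C2 alone, but the array listed them under different gene records. Whether they show the same gene is uncertain. For the 18 genes with no further probe, no such comparison could be made.

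The rule kept every member below detection at both NC1 and C1, so a comparison of these stages had little to measure, and it is given as values. None of the 27 probes was called between them at an adjusted p under 0.01 (limma), against 0.116% of all probes (0.0233% were higher and 0.0931% lower at C1), a share at which no call among 27 says nothing about the members. Before adjustment, 10 of the 27 had a p under 0.05, against 20.3% of all probes, and the lowest adjusted p was 0.0442, for SLC17A9. The mean was lower at C1 for 26 of the 27, against 50.7% of all probes, by a median of 0.73 on the log2 scale. Every one of these values lay below detection or was put in by the software, and the mean detection limit was itself lower at C1, -4.19 against -3.08 at NC1. The part of that limit in the difference was not tested.

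The genes usually named for cumulus expansion were not in the set. Of 196 genes in lists of the expansion matrix, EGF-like ligands, prostaglandins, proteases, cytokines, transcription factors, secretion, vessel signals, steroid synthesis and junctions, 184 had a probe and none was a member. Members made up 0.126% of all probes, a share at which no member among 184 genes says nothing about these lists. Of the 184, 138 were detected on all C2 arrays, against 67.0% of all probes. That each of these was also detected on some compact array follows largely from none being a member. AREG, an EGF-like ligand, was detected on all 5 C2 arrays, 1 C1 array and 1 NC1 array. Its means were 1.96 ± 2.65 (SD), -5.77 and -4.36. It failed the filter of valid probes and could not be tested, nor could DSP, described above. SYT13, detected on all 6 C1 and all 6 NC1 arrays but on no C2 array, failed the filter too. Of the 132 listed genes that could be tested, 43 rose and 18 fell from C1 to C2, and 35 rose and 19 fell from NC1. Over all valid probes, 15.3% rose and 12.8% fell from C1, and 15.5% rose and 12.6% fell from NC1. The median differences of the listed genes were 0.56 and 0.42, against 0.02 and 0.11 over all valid probes.

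In the hyaluronan matrix list, 4 of 6 genes were called higher than at C1 and none lower, against 15.3% and 12.8% of all valid probes. HMMR, a hyaluronan receptor, differed from C1 by -2.10 ± 0.65 and did not pass the threshold (limma, adjusted p = 0.0156). TNFAIP6, which links hyaluronan to heavy chains, had 8.83, 8.53, 9.90, 9.96 and 9.24 at C2, against -0.16 to 5.06 at C1 with a median of 2.79, a rise of 6.63 ± 0.73 (adjusted p = 1.1e-06). PTX3, which cross-links the matrix, rose by 4.98 ± 0.79 (adjusted p = 6.5e-05). Both were already detected in compact cumulus.

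Among metalloproteinases and inhibitors, 4 of 12 were called higher than at C1 and none lower, against 15.3% and 12.8% of all valid probes. The rises were led by MMP1, a collagenase, at 4.86 ± 0.42 (adjusted p = 6.2e-08), and TIMP1, an inhibitor, at 4.59 ± 0.53 (adjusted p = 1.9e-06). Among transcription factors, 6 of 25 rose and 4 fell, against 15.3% and 12.8% of all valid probes. The list's median difference from C1 was -0.15. RUNX2 rose by 4.47 ± 0.57 (adjusted p = 5.4e-06) and KLF5 by 3.91 ± 0.60 (adjusted p = 4.7e-05), while MYC fell by 4.78 ± 0.62 (adjusted p = 7.9e-06) and BHLHE40 fell by 2.06 ± 0.44 (adjusted p = 0.0011).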

How the data were processed

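RNA of cumulus cells from 17 animals was measured on 17 Agilent 1-colour (Cy3) arrays of bovine design. The authors deposited the intensity of each spot from Agilent Feature Extraction 10.5.1.1, background-subtracted and detrended within the array, and a table of log2 values scaled by each array's median, which holds 15256 probes and 0 of the 27 members and was used here for probe sequences and as a check of the scale.

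Here, log2 of the processed intensity was averaged over a probe's spots (2 for each member), leaving out non-uniform and outlier spots, and the array's median was subtracted. Probes were named by accession, gene ID, symbol or description through the RefSeq gene table. Stages were compared with limma 3.58.1 in R 4.3.3, all 3 in 1 fit, with Benjamini-Hochberg adjustment and a threshold of 0.01, over 21475 probes for C1 against NC1 and over 13865 valid probes (present on 80% of the arrays of each stage) otherwise. A listed gene was given by its brightest valid probe. The script was tested on simulated data. Alternatives were other detection flags, scalings, normexp background correction (offset 50), blocks, and each array left out.

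The members and gene lists were chosen with earlier results of these data known, and the lists of each member's partners, named with them, after the members' values were seen. All named members are given except 1, which is counted but not reported here. Of the pathway lists, 3 were described by gene with results known, with the 2 largest rises and falls. Neighbours of the rule, partners and cell-type markers named with values, and the genes taken out of marker lists, were chosen after their values were seen. Replicate numbers mark different animals. A genome build is not given in the sources used here, and positions are left out. The oligonucleotides of the member probes were not used here. The number of arrays limits the precision.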

Additional observations from a re-analysis of the deposited data

Results flagged for a closer look

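In 69 sets of C2, C1 or NC1 levels checked, 2 held an array far from the rest of its group by Dixon's test, which chance does in about 1 of 20. The second NT5E probe stood at -3.92 on NC1 replicate 3, not detected, against 2.06 to 4.21 on the other 5 NC1 arrays. RUNX2 stood at -1.56 on C1 replicate 4, against 0.78 to 2.17 on the other 5 C1 arrays. None of the 27 members was set apart in this way at C2. The test looks for a single array and cannot see a high pair. S100A9, high in C2 replicates 3 and 4, had a ratio of 0.045 against a critical value of 0.71. The rule also left out any probe not detected on a C2 array, so a low outlier among members was unlikely from the start.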

How the results depend on the processing

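The number of probes detected on all C2 and no compact arrays was 27 and depended on the flag and on single arrays. It was 5 with the positive and significant flag, with 0 members kept, and 44 when all spots had to be well above background, with 23 kept. Leaving out 1 array gave 27 to 54 probes, the highest without C2 replicate 2. Added after the data were seen, the rule gave 91 probes on the arrays of scan day 1 alone and 159 on those of day 2, with fewer arrays to satisfy. The median C2 level of the members was -4.98 with 75th percentile scaling, which moves the zero of the scale, -0.59 with normexp and -1.21 to -0.96 with 1 C2 array left out. The lower limits over C1 and NC1, and the count of 0 members called between C1 and NC1, were largely fixed by the rule, so the alternatives say nothing about their stability. Genes of the expansion lists called at C2 numbered 50 to 71 over C1 and 46 to 62 over NC1. Same-numbered arrays of different stages correlated from -0.32 to 0.25, with 4 of 16 pairs over 0.1, so the numbers were not taken as pairs. With the replicate block, 0 members were called between C1 and NC1, and 55 and 46 listed genes at C2 over C1 and NC1. KLF5 over NC1, 2.21 with the close C2 arrays averaged, and BHLHE40 over NC1, -1.71 to -1.50 under 6 alternatives, lost the threshold.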
